A study of Mus musculus with 12 samples.

Results

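Acod1, which makes the antimicrobial metabolite itaconate, was followed in TNF-exposed mouse endothelial cells together with 7 other genes of inflammatory metabolism: Ptgs1, Ptgs2 and Ptges of the prostaglandin pathway, Nos2, Sod2, Hmox1 and Ch25h. The 8 genes were picked by name with earlier results of these arrays known, and each was read from its probe set with the highest mean log2(signal + 16) over the 12 arrays. A probe set annotated to a single gene symbol was used for 7 of the 8, among 18193 genes with such a probe set, and Ptgs1 is not analysed here. The genes tested were those that reached a signal of 100 on at least 4 of the 12 arrays. This held for 10269 genes, among them 5 of the 8 (Acod1, Ptgs2, Sod2, Hmox1 and Ch25h), while Ptges and Nos2 were too dim.

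The cells were cultured endothelial cells of newborn wildtype mice, grown in serum-supplemented DMEM, with 4 arrays in each of 3 groups. The control cells were mock-transfected. The transmembrane TNF cells had been stably transfected with a mutant murine TNF that cannot be cleaved from the membrane, which the labels describe as constant activation. The soluble TNF cells received TNF at 20 ng/ml for 4 h, and the labels do not settle whether they had been mock-transfected as well. The labels do not say whether the 4 replicates of a group were separate cultures, clones or animals, so the p-values rest on the spread between these arrays alone, which may be technical in part. The replicate numbers used here are the order of the samples and pair none of them.

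TNF acts on its receptors at the endothelial surface and switches on transcription through NF-kB, a factor with binding sites at many inflammatory genes. Acod1 diverts cis-aconitate from the tricarboxylic acid cycle to itaconate, Ptgs2 (COX-2) and Ptges turn arachidonic acid into prostaglandin E2, and Nos2 makes nitric oxide. Sod2 removes superoxide in mitochondria, Hmox1 breaks down heme, and Ch25h makes 25-hydroxycholesterol, an oxysterol that restrains sterol synthesis.

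The promoters of the members are shown so that the letters before their transcription starts can be set beside the values. RefSeq promoters (GRCm38.p6) were at hand for 6 of the 8 genes, and the 250 bases before the transcription start are given for 4 that passed the signal filter. They lie at chr14:103046762-103047011 on the plus strand for Acod1, at chr17:13007589-13007838 on the plus strand for Sod2, at chr1:150099781-150100030 on the plus strand for Ptgs2 and at chr19:34475149-34475398 on the minus strand for Ch25h. Capitals mark matches to the motifs searched.
Acod1: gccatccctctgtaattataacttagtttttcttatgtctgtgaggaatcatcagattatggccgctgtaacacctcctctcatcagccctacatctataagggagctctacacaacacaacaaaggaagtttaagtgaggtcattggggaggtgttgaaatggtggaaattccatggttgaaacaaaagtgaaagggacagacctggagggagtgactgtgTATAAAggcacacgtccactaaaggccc
Sod2: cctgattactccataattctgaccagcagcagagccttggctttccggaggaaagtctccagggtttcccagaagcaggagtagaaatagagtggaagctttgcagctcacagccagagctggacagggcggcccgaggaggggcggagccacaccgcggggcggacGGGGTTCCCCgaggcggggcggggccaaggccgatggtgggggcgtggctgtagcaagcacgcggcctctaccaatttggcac
Ptgs2: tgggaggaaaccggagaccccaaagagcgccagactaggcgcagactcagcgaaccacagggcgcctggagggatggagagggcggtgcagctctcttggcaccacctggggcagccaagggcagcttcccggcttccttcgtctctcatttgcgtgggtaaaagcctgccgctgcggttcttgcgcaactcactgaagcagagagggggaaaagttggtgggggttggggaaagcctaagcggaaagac
Ch25h: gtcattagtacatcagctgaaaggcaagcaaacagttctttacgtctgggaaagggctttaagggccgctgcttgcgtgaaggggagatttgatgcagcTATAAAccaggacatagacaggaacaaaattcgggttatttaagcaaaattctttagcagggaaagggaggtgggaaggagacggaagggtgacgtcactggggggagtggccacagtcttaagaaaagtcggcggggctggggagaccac
The motifs, searched on both strands, were the NF-kB consensus, TATAAA (the TATA box), GAAANNGAA (the interferon-stimulated response element), TGANTCA (AP-1) and TGACNNNGC (the core of the antioxidant response element). Sod2 held the NF-kB consensus, 83 to 74 bases before its start, as GGGGTTCCCC. This stretch matched on both strands. Acod1 held TATAAA 28 to 23 bases before its start, and Ch25h held it 151 to 146 bases before. The Ptgs2 window held none of these letters. Of 32851 promoter windows of this length, 3.9% held the NF-kB consensus, 12.4% TATAAA, 7.13% GAAANNGAA, 6.75% TGANTCA and 10.2% TGACNNNGC. These matches are descriptions of the letters and say nothing about binding in these cells.

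None of the 5 enzymes tested passed the threshold, an adjusted p under 0.05, in any comparison. The differences were fitted over all tested genes with limma, with Benjamini-Hochberg adjustment. Between transmembrane TNF and control, 0 of the 5 were called against 0.195% of all genes, and between soluble TNF and control 0 of 5 against 0.039%. Between the transmembrane and soluble forms, 0 of 5 were called against 1.22% of all genes. Only Acod1 had an unadjusted p under 0.05, and it had it against control in both TNF groups, as did 7.56% of all tested genes for transmembrane TNF and 12.7% for soluble TNF; between the TNF forms 0 of the 5 and 19.9% of all genes had one. The median difference of the 5 genes was 0.91 on the log2 scale for transmembrane TNF minus control, -0.73 for soluble TNF minus control and 0.13 for transmembrane minus soluble TNF, beside 0.03, -0.04 and 0.08 over all tested genes.

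Several features of the arrays bear on these genes. All 15 endothelial markers passed the filter, but their summed signal ran from 14230 to 122400 in controls, from 28510 to 132400 with transmembrane TNF and from 33080 to 72490 with soluble TNF. It was lowest in control replicate 3 and in transmembrane TNF replicates 2 and 4, which also had high Krt19, a keratin of mesothelial and epithelial cells (7120, 11490 and 5564, against 65.41 to 3244 on the other arrays). Of 14 myeloid and other leukocyte markers 4 passed (Cd68, Cd14, Csf1r and Lyz2), and their sum ran from 716.7 to 18700 in controls, 5033 to 7461 with transmembrane TNF and 532.1 to 1030 with soluble TNF. The leukocyte marker Ptprc stayed at or under 38.8, Itgam at or under 36.2 and Adgre1 at or under 82.4 on all 12 arrays, while Mpeg1 reached 1010 on its brightest array. The 5 fibroblast and mural markers of 12 that passed summed to 300.5 to 10070 in controls, 354.4 to 1297 with transmembrane TNF and 1324 to 9611 with soluble TNF. The mesothelial markers that passed (Msln and Krt19, 2 of 6) summed to 270.3 to 10530 in controls, 105.9 to 13950 with transmembrane TNF and 372.3 to 4379 with soluble TNF. The summed signal of 3 Y-linked genes was 968.4 to 2508 on the transmembrane TNF arrays and 17.56 to 87.22 on the others, so the source of the cells and the transfection cannot be told apart. The Tnf probe set stayed between 6.18 and 77.2 on all 12 arrays and so does not check the transfection. In bulk RNA, fewer cells of a type and less RNA per cell cannot be told apart.

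Acod1 was below a signal of 100 in every control and above it on 7 of the 8 TNF arrays. Its signals were 2.86, 28.12, 44.79 and 2.812 in control replicates 1 to 4. With transmembrane TNF they were 17.77, 759.5, 1137 and 1850, and with soluble TNF 499.8, 120.9, 1215 and 437.3. All 4 soluble TNF arrays lay above all controls, and so did 3 of the 4 transmembrane TNF arrays, while transmembrane TNF replicate 1 lay among the controls. Acod1 passed the signal filter only through TNF arrays. Acod1 was high in transmembrane TNF replicate 3, where the endothelial sum was 132400, and in replicates 2 and 4, where that sum was 28510 and 30670. In replicate 1 the endothelial sum was 132100 and Acod1 17.77. The part of endothelial content in the Acod1 values was not tested.

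Because all 4 controls were below 100, the size is given as a bound, the mean of the TNF group against a signal of 100. By its group mean, Acod1 was at least 4.2-fold above control with transmembrane TNF, where 3 of 4 arrays measured it above 100. With soluble TNF it was at least 3.84-fold above. These bounds allow for the floor but not for the spread between arrays. The fitted 95% intervals reached down to 3-fold and 2.75-fold. The fitted log2 difference was 3.96 ± 1.09 (SE, n = 4 per group; 95% interval 1.59 to 6.34) for transmembrane TNF, with an adjusted p of 0.262 from limma. For soluble TNF it was 3.83 ± 1.09 (1.46 to 6.21), with an adjusted p of 0.246. Neither passed the test, and the fitted sizes rest on control readings below the limit of measurement, so that only the bounds give a size. The standard deviation between arrays of the same group was 1.76 for Acod1, above that of 97.3% of genes, with a median over all genes of 0.45.

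Separation of the groups was not rare in this series. Acod1 was the only one of the 5 enzymes whose soluble TNF and control arrays did not overlap, and 8.11% of all tested genes had that property. For transmembrane TNF against control 0 of the 5 were without overlap, beside 3.17% of all genes, and for transmembrane against soluble TNF 0 of 5 beside 16.1%. The result for transmembrane TNF hung on its replicate 1, the lowest Acod1 array of the group. Without that array the Acod1 difference was 5.25, with an adjusted p of 0.00528 from limma. Leaving out the lowest array raises the mean and narrows the spread, so this p is not a separate test. A further alternative, chosen after seeing the data, left out the 3 arrays of low endothelial signal. Of the transmembrane TNF group it kept only replicates 1 and 3. The Acod1 difference was then 2.98 (adjusted p = 0.806) for transmembrane TNF and 4.16 (adjusted p = 0.173) for soluble TNF. With so few arrays, the loss of precision and the endothelial content cannot be told apart.

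The order of the Acod1 means was transmembrane TNF, soluble TNF and control, and the TNF groups did not differ beyond their spread. Their difference was 0.13 ± 1.09 with a 95% interval from -2.25 to 2.51, which leaves room for several-fold differences either way. The sign of this difference turned to -0.01 with quantile normalization and to -0.07 with arrays scaled to the same median.

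**Figure D1:**
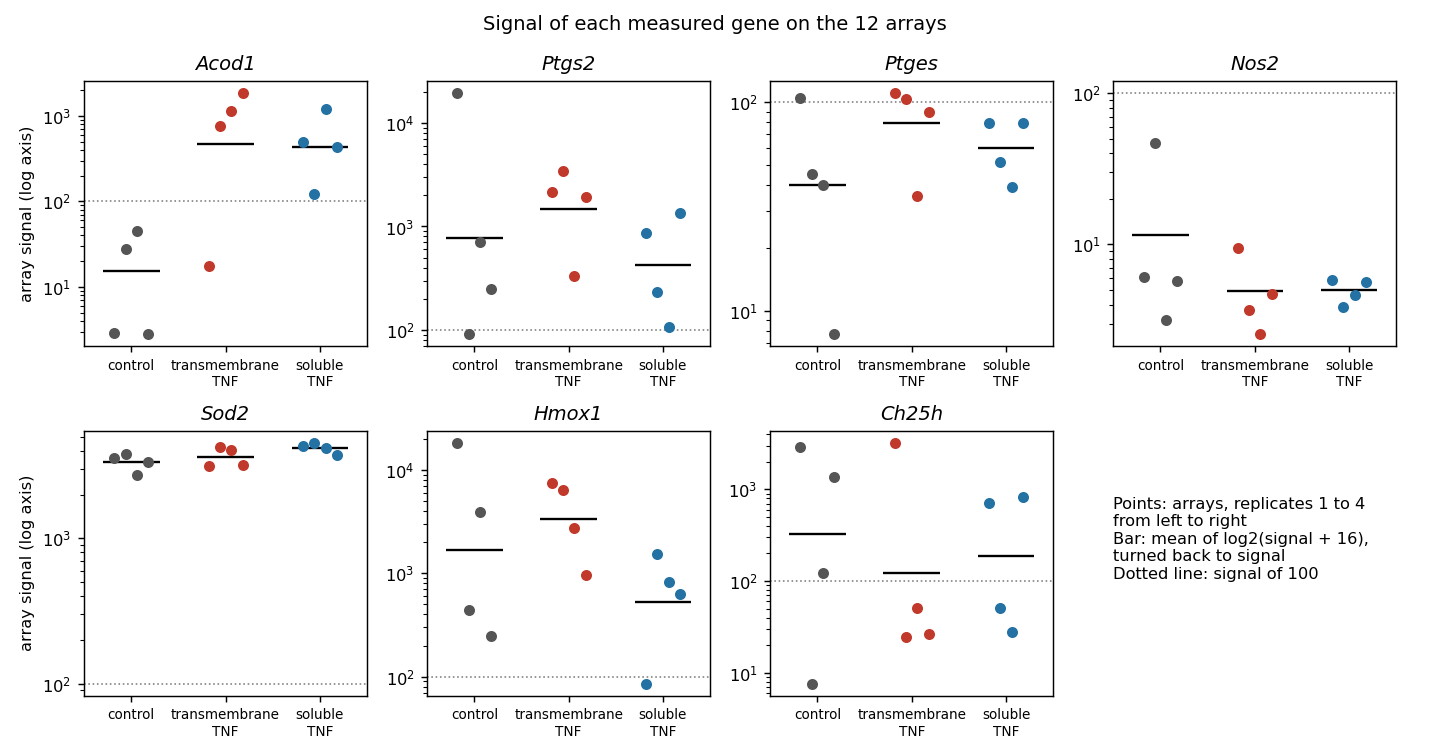
Array signal of the 7 measured enzymes (log axis, separate for each gene) on the 4 control, 4 transmembrane TNF and 4 soluble TNF arrays, with bars at the mean of log2(signal + 16). Acod1 lies below 45 in controls and above 100 on all TNF arrays but 1, Sod2 is nearly level, and Ptgs2, Hmox1 and Ch25h scatter widely within groups.

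Among tested genes, predicted ones left out, Tlr2 had the pattern over the 12 arrays most like that of Acod1. Tlr2 is a receptor for bacterial lipoproteins. These correlations are descriptions over arrays that share their groups, and they include Acod1 readings below 100. Tlr2 had a Pearson r of 0.96 and a Spearman rho of 0.94, and r was 0.91 after each group's mean was removed. Tlr2 signals were 175, 366.2, 152.1 and 105.2 in controls, 368.6, 1766, 2079 and 3251 with transmembrane TNF, and 911.7, 600.3, 1946 and 1204 with soluble TNF. Transmembrane TNF replicate 1 was again the lowest of its group. Parp8 (r = 0.93), Junb, an AP-1 subunit (0.92), the tetraspanin Cd82 (0.92) and Vcam1, an adhesion molecule for leukocytes (0.89), followed. Vcam1 was 311 in transmembrane TNF replicate 1 and 5890, 14200 and 15490 in the rest of that group.

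Ptgs2, the inducible cyclooxygenase, was measured on nearly all arrays and showed no separation by group. Its control signals were 19480, 91.29, 707.2 and 249.2. With transmembrane TNF they were 2136, 3436, 330.9 and 1918, and with soluble TNF 855.9, 235, 107 and 1343. Control replicate 1 held the highest value of the series and control replicate 2 the lowest, so the controls alone spanned every TNF array. The log2 difference was 0.91 ± 1.39 (95% interval -2.12 to 3.93, adjusted p = 0.943 from limma) for transmembrane TNF minus control and -0.86 ± 1.39 (-3.89 to 2.16, adjusted p = 0.834) for soluble TNF minus control. Transmembrane minus soluble TNF was 1.77 ± 1.39 (-1.25 to 4.80, adjusted p = 0.502), with 3 of 4 transmembrane arrays above all soluble ones.

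The second Ptgs2 probe set showed the same array order at the extremes, with 17300 in control replicate 1 and 43.84 in control replicate 2. Its differences were 0.67 for transmembrane TNF minus control and -1.53 for soluble TNF minus control. Leaving out single replicates moved the first from -0.05 to 2.45 on the main probe set and the second from -1.83 to 0.67, so no direction can be given for Ptgs2 against control.

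Ptges, the inducible prostaglandin E synthase downstream of Ptgs2, stayed dim and reached 100 on 3 of 12 arrays. Its signals were 104.3, 45.09, 40.17 and 7.732 in controls, 110.4, 103.3, 35.59 and 89.48 with transmembrane TNF, and 79.06, 51.53, 39.01 and 79.54 with soluble TNF. The groups overlapped throughout. In a limma fit without the signal filter, over 18193 genes, its differences from control were 0.77 (adjusted p = 0.827) and 0.45 (adjusted p = 0.826).

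Nos2, the inducible nitric oxide synthase, was below 100 on all 12 arrays. Its control signals were 6.122, 46.55, 3.163 and 5.724, and the TNF arrays ranged from 2.56 to 9.438. No fold is given, because both sides of each comparison were under the measured range.

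Sod2, the mitochondrial superoxide dismutase, was the steadiest of the enzymes and bright on every array. Its signals were 3597, 3821, 2744 and 3361 in controls, 3173, 4252, 4078 and 3223 with transmembrane TNF, and 4324, 4553, 4182 and 3754 with soluble TNF. With soluble TNF 3 of 4 arrays lay above all controls. The difference was 0.32 ± 0.17 (SE, n = 4 per group; 95% interval -0.04 to 0.68) on the log2 scale, or 1.25-fold, with an adjusted p of 0.447 from limma. For transmembrane TNF minus control it was 0.12 ± 0.17 (-0.24 to 0.48, adjusted p = 0.937), and for transmembrane minus soluble TNF -0.20 ± 0.17 (-0.56 to 0.16, adjusted p = 0.532).

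The Sod2 intervals are narrow: against control, the upper bounds allowed 1.4-fold with transmembrane and 1.6-fold with soluble TNF for this probe set. Its standard deviation within groups, 0.19, was larger than that of only 3.66% of genes. The 4 Sod2 probe sets did not give equal sizes. A dimmer probe set read 391.4, 516.6, 238.3 and 408.6 in controls, 410.5, 795.8, 630.2 and 594.5 with transmembrane TNF, and 717.9, 674.9, 826.3 and 571.6 with soluble TNF. There the soluble TNF arrays did not overlap the controls, while on the other Sod2 probe sets they did. The difference was 0.85 ± 0.28, with an unadjusted p of 0.0084 and an adjusted p of 0.413 from limma. That fit took 34945 probe sets one by one, without the signal filter. Over the tested genes, a different and filtered set, 8.11% were without overlap in this comparison and 12.7% had an unadjusted p under 0.05. All 4 probe sets were higher on average in both TNF groups than in controls, by 0.10 to 0.64 with transmembrane TNF and by 0.32 to 0.85 with soluble TNF, but the sign for transmembrane TNF on the brightest turned to -0.03 when arrays were scaled to the same median.

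**Figure D2:**
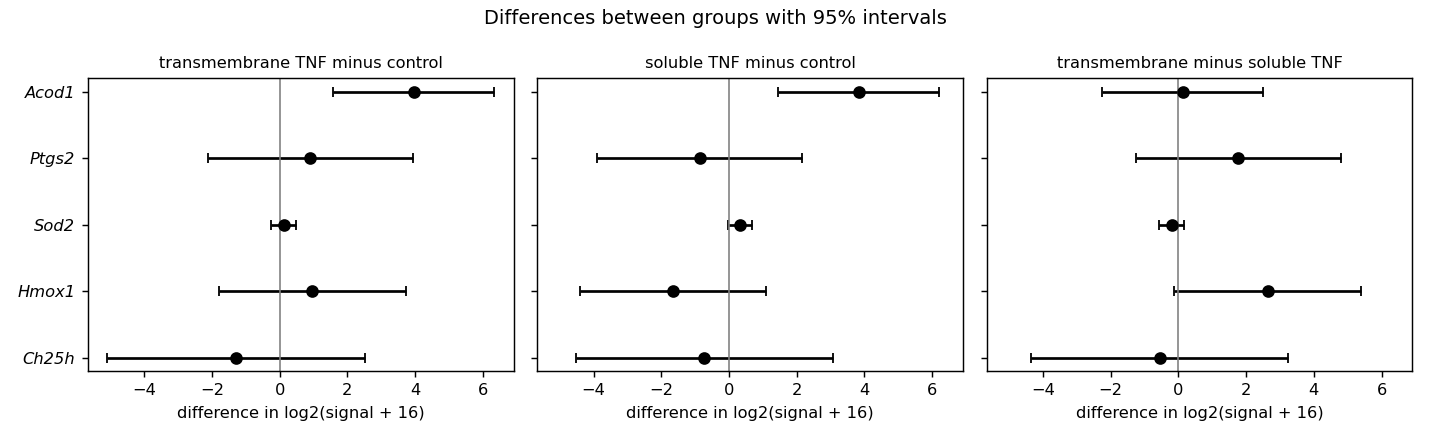
Differences between groups in log2(signal + 16) for the 5 enzymes that passed the signal filter, with 95% intervals from the limma fit (n = 4 arrays per group). The Acod1 intervals against control lie above 0 before adjustment over all genes. All other intervals span 0, and the Sod2 intervals are the narrowest.

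Hmox1, the inducible heme oxygenase, differed most between the TNF forms among the enzymes, without passing the test. Its control signals were 18330, 441.8, 3890 and 246.6. With transmembrane TNF they were 7514, 6338, 2718 and 954.8, and with soluble TNF 85.64, 1547, 828.9 and 626.4. The controls spanned every TNF array except soluble TNF replicate 1, and 3 of 4 transmembrane TNF arrays lay above all soluble TNF arrays. The difference between the TNF forms was 2.63 ± 1.26 on the log2 scale (SE, n = 4 per group; 95% interval -0.12 to 5.38), or 6.2-fold, with an unadjusted p of 0.0594 and an adjusted p of 0.269 from limma. Against control the differences were 0.97 ± 1.26 (-1.78 to 3.72, adjusted p = 0.932) with transmembrane TNF and -1.66 ± 1.26 (-4.41 to 1.09, adjusted p = 0.608) with soluble TNF.

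Among the 5 enzymes, Hmox1 had the highest r with the mean level of the myeloid markers, 0.75 over the 12 arrays, and its r with Cd68, a lysosomal protein abundant in macrophages, was 0.78 (Spearman rho 0.64). With Cd14, the lipopolysaccharide co-receptor, it was 0.28 (Spearman rho 0.32). Ptgs2 came next, with an r of 0.565 with the myeloid mean, 0.498 with Cd68 and 0.526 with Cd14. Cd68 was 18210, 520.1, 2285 and 255.2 in controls, 6728, 722.9, 4295 and 63.34 with transmembrane TNF, and 155, 149.7, 150.9 and 232.3 with soluble TNF. Control replicate 1 was highest for Cd68, Hmox1 and Ptgs2 alike, while Cd14 was 264.8 and Lyz2 42.75 there, and Ptprc, Itgam and Adgre1 stayed below 100 there as everywhere. The part of these markers in the Hmox1 and Ptgs2 values was not tested. For Acod1 the r with the myeloid mean was -0.03, made up of -0.49 with Cd68 and 0.43 with Cd14 among others. Its r was 0.35 with the mesothelial mean and 0.44 with the Y-linked mean. With the endothelial mean it was -0.29, and with the fibroblast and mural mean -0.025. The part of these markers in the Acod1 values was not tested.

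Ch25h, the cholesterol 25-hydroxylase, was either bright or near the floor within every group. Its control signals were 2890, 7.632, 122.4 and 1373. With transmembrane TNF they were 3213, 24.39, 51.4 and 26.7, and with soluble TNF 701.1, 50.83, 27.92 and 821.6. Thus 6 of 12 arrays reached 100, 3 of them controls. The standard deviation within groups was 2.85, above that of 99.7% of genes. The log2 difference was -1.28 ± 1.75 (95% interval -5.09 to 2.52, adjusted p = 0.937 from limma) for transmembrane TNF minus control, -0.73 ± 1.75 (-4.53 to 3.08, adjusted p = 0.893) for soluble TNF minus control and -0.56 ± 1.75 (-4.36 to 3.24, adjusted p = 0.887) between the TNF forms. Without the 3 arrays of low endothelial signal, which left only replicates 1 and 3 of transmembrane TNF, the first became 0.03, so no direction is given.

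Acod1 and Ch25h tended to opposite arrays. Over the 12 arrays their r was -0.57 (Spearman rho -0.59), and -0.67 with group means removed. Acod1 reached 100 on 7 of these arrays and Ch25h on 6, so these values rest in part on readings below the limit of measurement. Transmembrane TNF replicate 1 had the lowest Acod1 signal of its group and the highest Ch25h signal of the series. Ptgs2 correlated with Hmox1 at 0.61 and with Ch25h at 0.52, and Acod1 with Sod2 at 0.43 and with Ptgs2 at -0.12. The genes most like Ch25h were Map1a (r = 0.93), Inf2 (0.92) and Tlcd3b (0.91). Those most like Hmox1 were Smim8 (0.94), Tmem135 (0.92) and Phf1 (0.92), those most like Ptgs2 were Epha2 (0.90), Aldoa (0.89) and Orc4 (0.89), and those most like Sod2 were Cachd1 (0.84), Hnrnpf (0.82) and Srsf11 (0.79). No gene was among the nearest of more than a single enzyme.

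**Figure D3:**
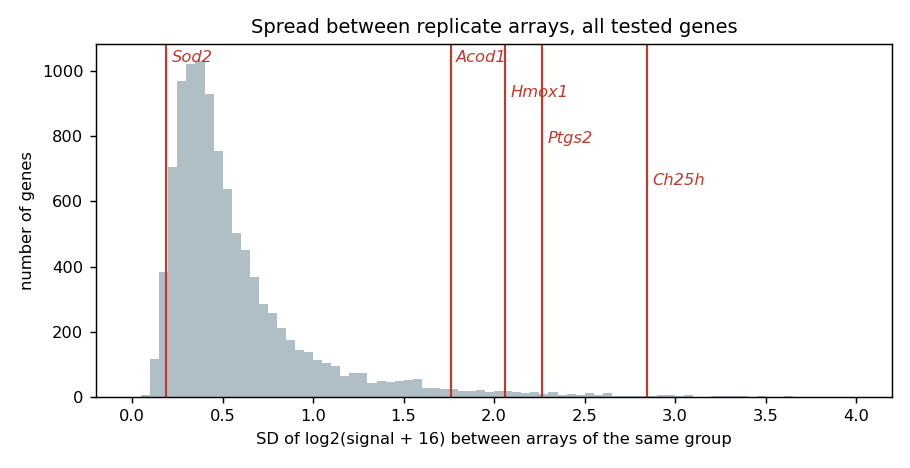
Histogram of the standard deviation of log2(signal + 16) between arrays of the same group for the 10269 tested genes, with 5 enzymes marked. Sod2 (0.19) lies at the narrow end, and Acod1 (1.76), Hmox1 (2.06), Ptgs2 (2.26) and Ch25h (2.85) lie in the upper tail, beyond the median of 0.45.

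**Figure D4:**
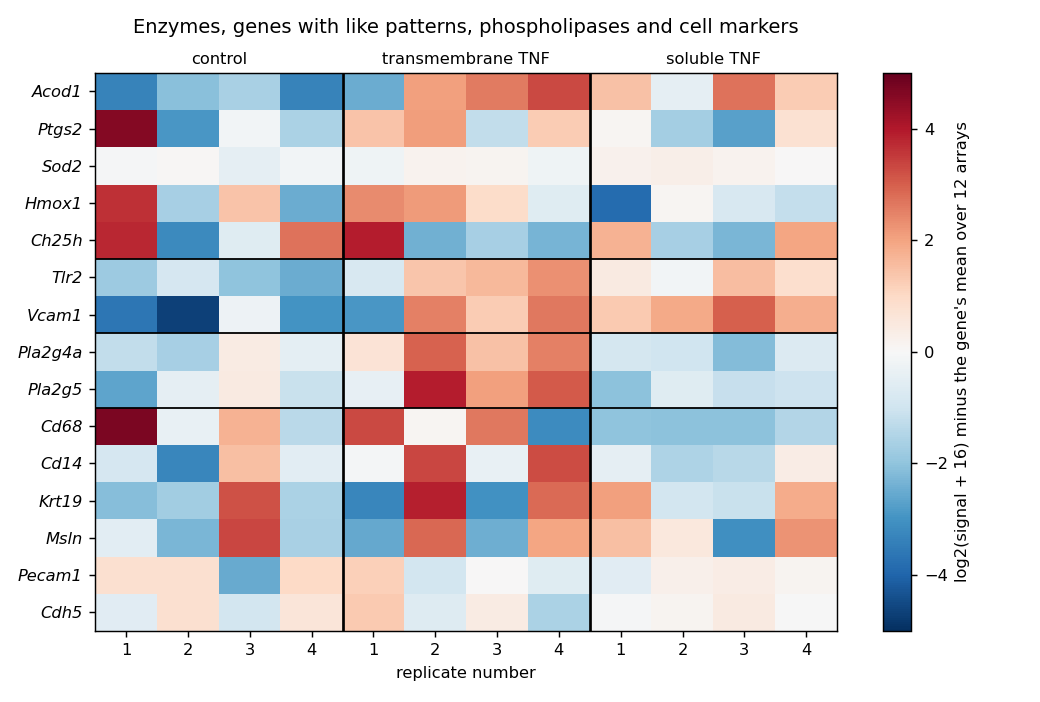
Level of each gene on each array, as log2(signal + 16) minus the gene's mean over the 12 arrays (colour scale), for 5 enzymes, Tlr2 and Vcam1, phospholipases Pla2g4a and Pla2g5, and markers of myeloid (Cd68, Cd14), mesothelial (Krt19, Msln) and endothelial (Pecam1, Cdh5) cells. Acod1 and Tlr2 are below their means in all controls and in transmembrane TNF replicate 1, and slightly below in soluble TNF replicate 2. Vcam1 is below its mean in all controls and in transmembrane TNF replicate 1, though near it in control replicate 3. Hmox1 and Ptgs2 are highest in control replicate 1 with Cd68. Krt19 and Cd14 are high together in control replicate 3 and transmembrane TNF replicates 2 and 4.

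Each enzyme was also set in a list of its pathway, and each count includes the enzymes themselves. The share of all tested genes called was 0.195% and 0.039% against control with transmembrane and soluble TNF, and 1.22% between the TNF forms. At such low shares, 0 calls in a list say little about its pathway. The genes of prostanoid and leukotriene synthesis held the only call of these lists. Of 29 genes listed 12 were tested, Ptgs2 among them, and 1 passed between the TNF forms, beside 1.22% of all genes; 0 passed against control. Pla2g4a, the cytosolic phospholipase that frees arachidonic acid for the cyclooxygenases, rose with transmembrane relative to soluble TNF. Its signals were 320.8, 231.4, 1034 and 548 in controls, 1254, 5952, 2172 and 4488 with transmembrane TNF, and 411.7, 378.5, 157.3 and 477 with soluble TNF. All transmembrane TNF arrays lay above all others. The difference between the TNF forms was 3.08 ± 0.56 on the log2 scale, or 8.48-fold, with an adjusted p of 0.0248 from limma. Against control it was 2.64 ± 0.56, with an adjusted p of 0.0938.

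The Pla2g4a call was lost when any of 6 single arrays was left out (transmembrane TNF replicates 2, 3 and 4 and soluble TNF replicates 1, 2 and 3; adjusted p 0.0601 to 0.0999). It was also lost without the 3 arrays of low endothelial signal, where the difference was 2.27 and the adjusted p 0.059. Only replicates 1 and 3 of transmembrane TNF were left there. The highest Pla2g4a signals were those of transmembrane TNF replicates 2 and 4, the arrays with the most Krt19 in that group, and the part of that in the difference was not tested. Pla2g5, a secreted phospholipase, read 7.126, 90.38, 178.4 and 51.16 in controls, 91.47, 2165, 573.3 and 1180 with transmembrane TNF, and 18.63, 77.65, 48.96 and 54.83 with soluble TNF. Its fitted difference from control with transmembrane TNF was 3.08 ± 0.86 (adjusted p = 0.269), with 3 of 4 controls below 100. Pla2g5 passed the signal filter only because of its high transmembrane TNF arrays. The prostaglandin E2 receptor Ptger4 (1.12, adjusted p = 0.586) and the leukotriene pathway protein Alox5ap (-1.32, adjusted p = 0.656) had the smallest p of the list for soluble TNF minus control.

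Of 26 genes of the tricarboxylic acid cycle and itaconate 24 were tested, Acod1 among them. Beside at most 1.22% of all genes, 0 of these 24 were called in any comparison. Their median difference was -0.06 for transmembrane TNF minus control, 0.16 for soluble TNF minus control and -0.16 between the TNF forms. Sucla2, a subunit of succinyl-CoA synthetase, had the smallest p between the TNF forms, with a difference of -0.47 (adjusted p = 0.0866), followed by fumarase, Fh1, with -0.65 (adjusted p = 0.0965). Citrate synthase, Cs, differed from control by 0.40 with soluble TNF (adjusted p = 0.427).

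Of 22 genes of nitric oxide, arginine and tetrahydrobiopterin metabolism 15 were tested. Of these 15, 0 were called in any comparison, beside at most 1.22% of all genes. Ddah1, which degrades the endogenous nitric oxide synthase inhibitor dimethylarginine, had signals of 548.3, 57.19, 763.8 and 1474 in controls, 437.4, 6.023, 530.3 and 76.99 with transmembrane TNF, and 2241, 3489, 3822 and 1640 with soluble TNF. The soluble TNF arrays lay above all others. The difference of transmembrane minus soluble TNF was -4.15 ± 1.04 (adjusted p = 0.071), and that of soluble TNF minus control was 2.51 ± 1.04 (adjusted p = 0.363). Gch1, the first enzyme of tetrahydrobiopterin synthesis, ran from 2962 to 3837 with soluble TNF, from 3507 to 10780 in controls and from 5090 to 10170 with transmembrane TNF, and the difference of soluble TNF from control was -0.89 (adjusted p = 0.327). Nos3, the endothelial nitric oxide synthase, differed from control by -0.48 (adjusted p = 0.946) with transmembrane TNF.

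Of 19 genes of oxysterol synthesis and response 10 were tested, Ch25h among them. Of these 10, 0 were called, beside at most 1.22% of all genes. Mylip, a ubiquitin ligase that degrades the LDL receptor and responds to oxysterol-activated LXR, read 32.42 to 91.94 in controls, 250.1 to 650.8 with transmembrane TNF and 67.79 to 213.6 with soluble TNF. All 4 controls were below 100, and by its group mean Mylip was at least 3.09-fold above them with transmembrane TNF (adjusted p = 0.0674 from limma). Mylip passed the signal filter only through TNF arrays. Against soluble TNF, where 3 of 4 arrays were below 100, the fitted difference was 1.66 ± 0.43 (adjusted p = 0.0746). Insig1, which retains SREBP in the endoplasmic reticulum, differed between the TNF forms by 0.87 (adjusted p = 0.229).

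Of 18 genes of heme breakdown, iron storage and the NRF2 response 17 were tested, Hmox1 among them. Of these 17, 0 were called, beside at most 1.22% of all genes. The list's median was -0.38 for soluble TNF minus control, beside -0.04 over all tested genes. Nfe2l2, which encodes NRF2, ran from 2801 to 4687 with soluble TNF and from 4615 to 9165 in controls, a difference of -0.84 (adjusted p = 0.286). Slc40a1, the iron exporter ferroportin, differed by -3.11 (adjusted p = 0.342), and the cystine transporter subunit Slc7a11 by 1.58 between the TNF forms (adjusted p = 0.249).

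Of 22 genes of superoxide and peroxide removal, Sod2 among them, 15 were tested. Beside at most 1.22% of all genes, 0 of these 15 were called. Their median was 0.21 for soluble TNF minus control and -0.20 for transmembrane minus soluble TNF. Gpx1, a glutathione peroxidase, differed between the TNF forms by -0.53 (adjusted p = 0.0894). The cytosolic superoxide dismutase Sod1 differed from control by -0.53 with transmembrane TNF (adjusted p = 0.508), and from soluble TNF by -0.56 (adjusted p = 0.145).

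**Figure D5:**
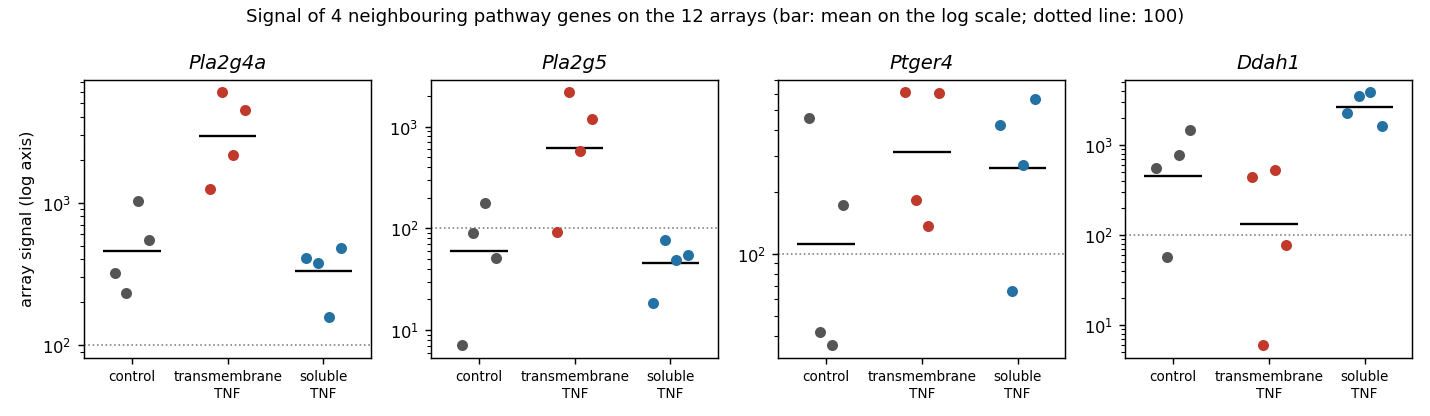
Array signal (log axis, separate for each gene) of Pla2g4a, Pla2g5, Ptger4 and Ddah1 on the 4 arrays of each group, with bars at the mean of log2(signal + 16). All transmembrane TNF arrays lie above all others for Pla2g4a, and all soluble TNF arrays lie above all others for Ddah1.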

How the data were processed

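Total RNA (about 5 ug per array) from 12 samples was hybridised to 12 Affymetrix mouse arrays, per the labels. The deposited intensity values are linear signals of 45101 probe sets, which the authors computed by MAS5, per the submitters' processing notes, and its version is not given in the sources used here. Here the signals were brought to a common 2% trimmed mean of 500 per array (64 control probe sets left out) and analysed as log2(signal + 16), a scale that understates changes of dim genes. Symbols came from the platform annotation, and a gene was represented by its probe set of highest mean. The 3 groups were fitted in a single model with limma 3.58.1 (lmFit, eBayes with trend; R 4.3.3), two-sided, with Benjamini-Hochberg adjustment over 10269 genes. Detection calls were not used, so a signal of 100 stands for the limit of measurement. Values after ± are standard errors of log2 differences. The number of arrays, 4 per group, limits the precision. The members, the lists of pathway genes and markers, and the rule for named genes (per list and comparison, called genes, otherwise those of smallest p) were chosen with earlier results of these data known; not every gene the rule names is given. Genes alike in pattern are those of highest Pearson r over 12 arrays, with predicted genes that have no approved symbol passed over. Correlations used all readings, also those below 100. Alternatives covered scaling, pseudocount, filter, merging of probe sets, the variance model, array weights and leaving out arrays. The fit was tested on simulated data.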

Additional observations from a re-analysis of the deposited data

Results flagged for a closer look

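Within groups of 4 arrays, an array standing far from its nearest neighbour relative to the range of the group was looked for among the 7 measured enzymes, over 21 groups, and chance marks about 1 in 20 such groups. Ch25h in transmembrane TNF replicate 1 (signal 3213) stood apart, with a gap of 0.883 of the range. Nos2 in control replicate 2 (signal 46.55) stood apart with a gap of 0.879, at a signal below the limit of measurement.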

How the results depend on the processing

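The member results were recomputed under 26 alternatives. No member was called under any of them except Acod1 for transmembrane TNF minus control, where leaving out 1 replicate at a time gave 0 to 1 members called, the 1 being Acod1 without transmembrane TNF replicate 1. Its adjusted p ran from 0.00528 to 0.806 there and from 0.0644 to 0.492 for soluble TNF minus control, and its sign held throughout in both. Hmox1 kept its sign in all 3 comparisons, Sod2 in both with soluble TNF, and Ptgs2 between the TNF forms.

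The other differences changed sign at least once, and the cause was not tested. With arrays scaled to the same median, which moved the median of all genes by -0.144 for transmembrane TNF minus control and by -0.228 between the TNF forms, Sod2 became -0.026 in the former and Acod1 -0.065 in the latter. Acod1 between the TNF forms was -0.006 with quantile normalization and -0.029 with a pseudocount of 1. Array weights turned soluble TNF minus control to 0.683 for Ptgs2 and 0.463 for Ch25h. Without control replicate 3 and transmembrane TNF replicates 2 and 4, an alternative chosen after seeing the data, Ch25h was 0.03 for transmembrane TNF minus control and 1.187 between the TNF forms, and Acod1 was -1.175 between the TNF forms. With 1 replicate left out at a time, Ptgs2 ran from -0.055 to 2.447 for transmembrane TNF minus control and from -1.827 to 0.674 for soluble TNF minus control. Ch25h ran from -2.007 to 0.307 for soluble TNF minus control and from -2.07 to 0.119 between the TNF forms, where Acod1 ran from -0.517 to 1.412.

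The number of all genes called was 20 for transmembrane TNF minus control (1 to 52 over the alternatives), 4 for soluble TNF minus control (0 to 26) and 125 between the TNF forms (16 to 1176, the highest with array weights). Between the TNF forms 98 were called higher and 27 lower with transmembrane TNF, against 67 and 172 with arrays scaled to the same median. No paired analysis was possible because the labels give no replicate numbers, and those used here follow the order of the samples.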
